A study of Mus musculus with 6 samples.

Results

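The keratin genes and the genes of the desmosome were examined in RNA sequenced from the proximal incisor of mice that lost *Arid1b* in the *Gli1* lineage. Members were taken by gene name: numbered keratins, desmogleins, desmocollins and plakophilins, with *Dsp*, *Jup*, *Ppl*, *Evpl*, *Perp*, *Krtdap*, *Sfn* and *Pof1b*. The set was chosen by gene name, but after the ratio of mutant to control means was known for several keratins, so its ratios are given as a description. This gave 40 of the 19270 genes in the table, of which 21 were keratins and 19 were desmosome or associated genes. The control group held 3 samples labelled wild type, which the study's methods describe as tamoxifen-injected *Arid1b*fl/fl mice. The mutant group held 3 samples of *Gli1-CreER;Arid1b*fl/fl mice. Mice of both groups received tamoxifen at 1 month of age, and the tissue was taken 4 days after induction. The labels call the tissue incisor, and the methods describe it as dissected proximal mesenchyme. Nothing in the labels says that the samples of a group came from separate mice. The *Gli1* promoter drives the tamoxifen-dependent recombinase, and *Gli1*-expressing cells contribute to both the mesenchyme and the epithelium of the incisor. The values are the authors' mean of normalized signal for each group, with no value per sample and no SD analysed here, so differences between groups are given as ratios of means with no test, and none of them can be set against the spread between samples.

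Keratins are the intermediate filament proteins of epithelial cells, and each filament is built from type I and type II keratins joined in equal amounts. Which keratins are made follows the kind of epithelium: *Krt8* and *Krt18* in simple, single-layered epithelium, *Krt5* and *Krt14* in the basal layer of stratified epithelium, and *Krt1* and *Krt10* in the layers above it. Desmosomes are the junctions that anchor these filaments at the cell border. Their desmoglein and desmocollin cadherins bind the neighbouring cell, plakoglobin and plakophilins bind the cadherin tails, and desmoplakin ties the plaque to the keratins. In the continuously growing mouse incisor, both systems belong to the enamel epithelium of the cervical loop and its descendants, which lie against the dental mesenchyme.

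For the targeted gene *Arid1b* the means were 97.6 (control) and 38.0 (mutant), and their ratio was 0.390. The normalized values were read as the number of reads plus 1, scaled to a common upper quartile, under which the libraries held 37.1 to 49.6 M reads on these genes. A group whose 3 libraries held 3 reads each would average 0.103 (control) or 0.0923 (mutant), and these levels were used as floors against which a ratio is only a bound. The 8 listed marker genes of mesenchyme were detected in both groups, with a summed mean of 31412 in controls and 26198 in mutants, most of it from *Col1a1*. The Y-linked transcript *Ddx3y* was at the lowest mean in controls and at 65.3 in mutants, so effects of sex and of genotype cannot be told apart in any ratio below. In such bulk samples, a difference in the number of cells of a type and a difference in RNA per cell cannot be told apart either.

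Most keratin and desmosome genes had higher means in mutants. Of the 40 members, 38 had a higher mean in mutants and 2 a lower mean, and 26 were over 1.5-fold higher, against 7.17% of all 19270 genes. *Krt82* was the 1 member over 1.5-fold lower, against 5.73% of all genes. The median log2 ratio of mutant to control was 1.02 over the members, whereas it was 0.0021 over all genes. Large ratios are common among weakly expressed genes. The count was therefore also made by level: among the 18 members with a mean over both groups of at least 10, 14 were over 1.5-fold higher, against 2.15% of genes at that level. *Dsg1b* and *Ppl* were among these 14 only through their mutant means, since their control means were under 10. With both group means at 10 or above, 12 of 16 members were over 1.5-fold higher, against 1.68% of such genes. Among the 22 members with a mean under 10, 12 were, against 12.9% of genes at that level. No member with a mean of at least 10 was lower in mutants, and the 4 that stayed within 1.5-fold were *Krt8*, *Jup*, *Perp* and *Pkp4*. Just inside 1.5-fold lay *Krt1*, with a log2 ratio of 0.58, followed by *Dsg1c* at 0.52 and *Krt222* at -0.52, and the nearest member past it was *Dsg2* at 0.70.

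**Figure D1:**
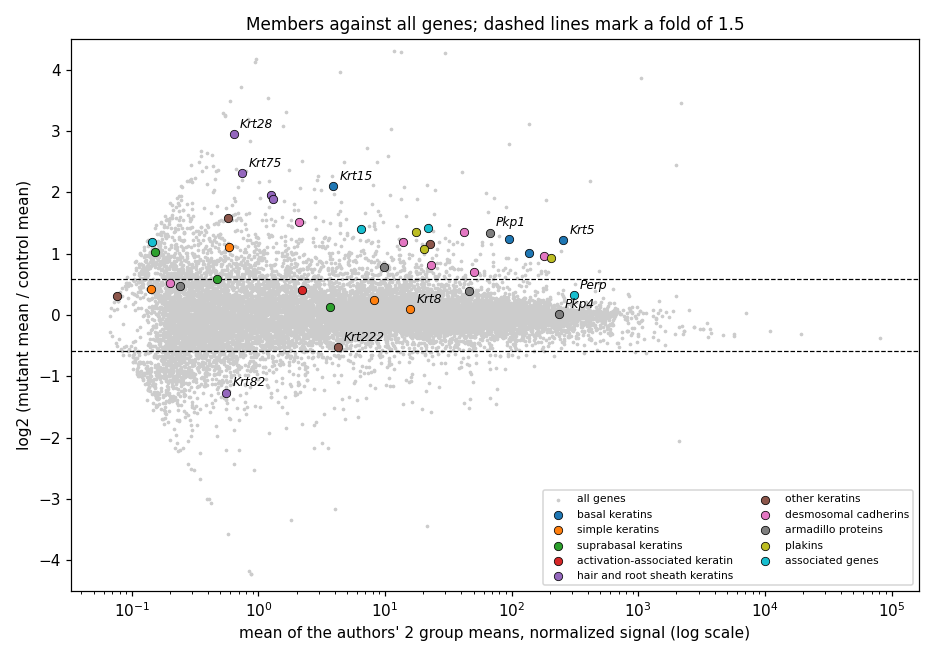
Each grey dot is a gene, with the mean of the authors' control and mutant means on the horizontal log axis and the log2 ratio of mutant to control on the vertical axis, and coloured dots are the 40 members by group. Among the members with a mean of at least 10, 14 of 18 lie above the upper dashed line of 1.5-fold and the other 4 lie between the lines, and 5 genes outside the limits of the vertical axis are not drawn.

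All 4 basal keratins were over 1.5-fold higher in mutants, against 7.17% of all genes. By level, the share was 2.15% at a mean of at least 10, where *Krt5*, *Krt14* and *Krt17* lie. It was 12.9% under 10, where *Krt15* lies. *Krt5*, *Krt14* and *Krt17* were the most abundant keratins of both groups, also per kb of annotated exon. *Krt5*, the type II keratin of basal cells (chromosome 15 of GRCm38, 101707070 to 101712898), had means of 154.2 in controls and 358.5 in mutants, a log2 ratio of 1.22. *Krt14*, its usual type I partner (chromosome 11, 100203162 to 100207548), had means of 90.4 and 182.3, a ratio of 2.02. *Krt17*, a type I keratin of ectodermal appendages such as teeth and hair (chromosome 11, 100256217 to 100261029), had means of 56.7 and 133.4, a log2 ratio of 1.23. The 3 abundant basal keratins thus had similar ratios. *Krt15*, a basal keratin also known from stem cells of the hair follicle, was far less abundant, with means of 1.48 and 6.32, and had the highest ratio of the group, 4.27. About 169 reads over the 3 control libraries and 819 over the 3 mutant libraries stand behind the 2 means of *Krt15*. The marker genes *Krt5*, *Krt14* and *Krt17* were thus present in the controls too, so the dissected proximal tissue of both groups held epithelial transcripts.

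Simple keratins differed less between the groups than basal keratins did, although the difference between these lists was not tested. *Krt8* (chromosome 15, 101996698 to 102004482) had means of 15.3 in controls and 16.4 in mutants, a ratio of 1.07. *Krt18* (chromosome 15, 102028180 to 102032027), the type I partner of *Krt8* that lies in the type II cluster, had means of 7.50 and 8.83, a ratio of 1.18. Both were within 1.5-fold. *Krt7*, found in simple and glandular epithelium, was the exception in this list, with means of 0.370 and 0.793 and a ratio of 2.15. *Krt20*, a keratin of gut and bladder lining, was near the floor in both groups, at 0.122 and 0.162. The median log2 ratio was 0.33 over the 4 simple keratins and 1.23 over the 4 basal keratins. The gene bodies of *Krt5* and *Krt8* are 283.8 kb apart in the same cluster, and those of *Krt8* and *Krt18* are 23.7 kb apart.

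Suprabasal keratins were scarce. *Krt10*, the type I keratin of spinous epidermal cells, had means of 3.50 in controls and 3.82 in mutants, a ratio of 1.09. *Krt1*, its type II partner, had means of 0.378 and 0.565. *Krt76*, a type II keratin of the palate, was under the floor in the controls, so that its mutant mean of 0.210 was at least 2.03-fold higher, on about 24.3 reads over the 3 mutant libraries. *Krt6a*, which basal-type epithelium makes during wound activation and in hair follicles, had means of 1.89 and 2.52, a ratio of 1.33. *Krt10*, *Krt6a* and, only just, *Krt1* stayed within 1.5-fold, as *Krt8* and *Krt18* did, whereas *Krt76*, *Krt5*, *Krt14* and *Krt17* did not. The median log2 ratio over the 3 suprabasal keratins was 0.58, against 0.33 over the simple and 1.23 over the basal keratins. None of the 3 suprabasal keratins had a mean of at least 10, and the difference between these lists was not tested. Other keratins of stratified and simple epithelium, such as *Krt4*, *Krt13*, *Krt16* and *Krt19*, were not among the genes in the table, so these lists lack them.

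**Figure D2:**
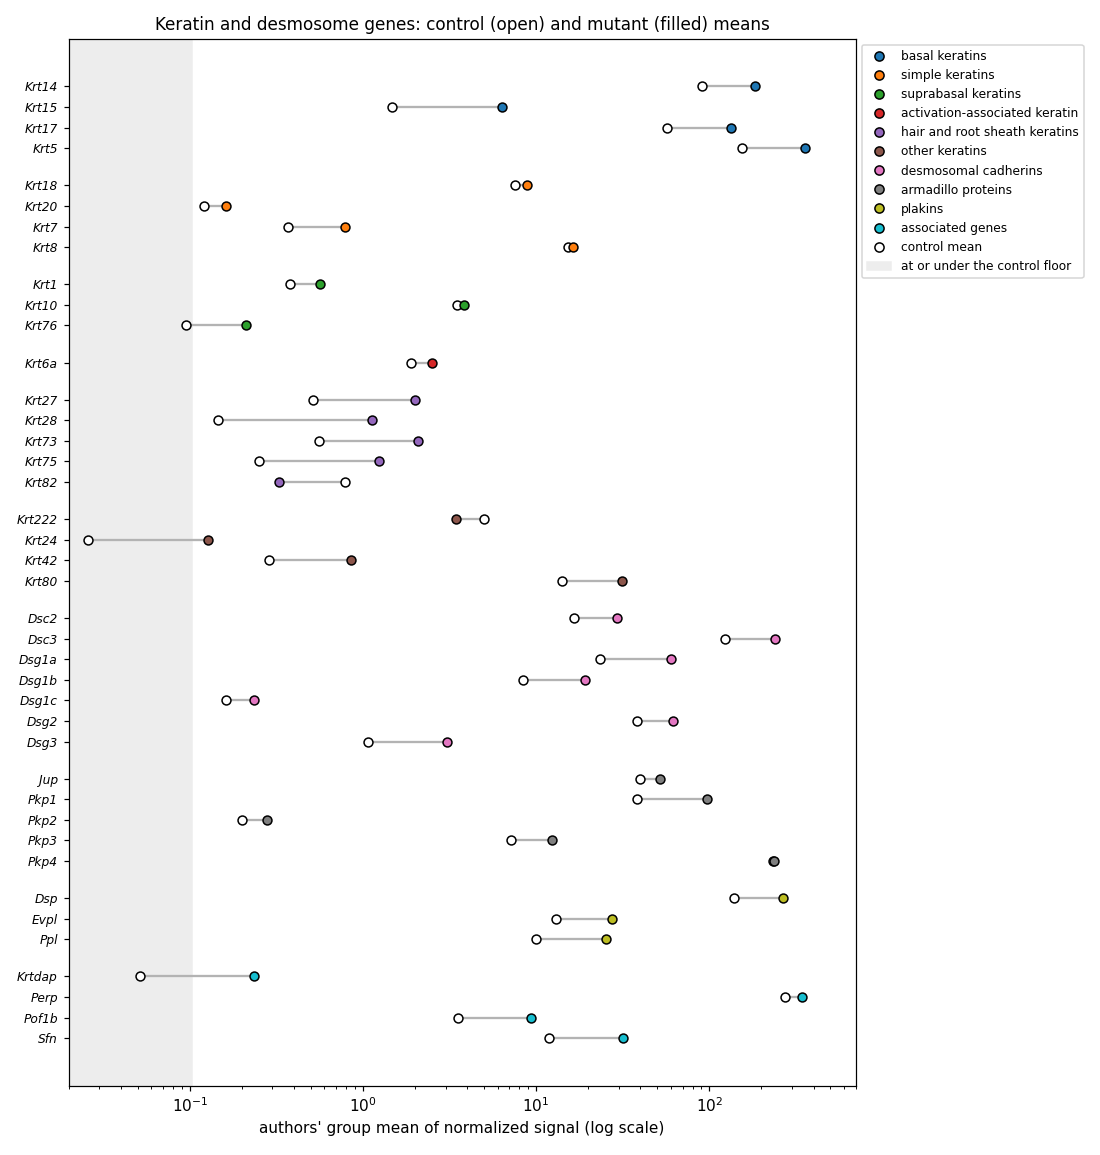
The authors' mean of normalized signal (log axis) of each of the 40 members in the controls (open) and the mutants (filled, coloured by gene group), with the range at or under the control floor shaded. The filled dot (which hides the open dot of *Pkp4*) lies to the right of the open dot for 38 members, *Krt5*, *Krt14*, *Dsc3*, *Dsp*, *Pkp4* and *Perp* are among those furthest to the right, and *Krt82* and *Krt222* are the 2 members with a lower mutant mean.

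Levels were compared between genes per kb of annotated exon. This length joined all annotated exons of a gene, so it can exceed the length of its transcripts. On that scale *Perp* was the most abundant member in both groups, at 140.4 in controls and 176.1 in mutants. *Krt5* followed at 70.2 and 163.2, and *Krt14* at 51.4 and 103.7. *Pkp4* came next in the controls, at 41.0, and *Krt17* after it, at 36.6. In the mutants *Krt17* at 86.0 and *Dsc3* at 44.2 both stood above *Pkp4*, which was at 41.4. The 4 basal keratins made up 88.5% of the summed keratin level per kb in controls and 92.8% in mutants, and the simple keratins 7.32% and 3.83%. The level of *Krt5* was 8.96 times that of *Krt8* per kb in controls and 19.5 times in mutants. The summed level of the 10 type I keratins was 1.18 times that of the 10 type II keratins in controls and 1.14 times in mutants, so the type I to type II ratio of levels differed little while both sums were higher in mutants. *Krt222* was left out of both sums.

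**Figure D3:**
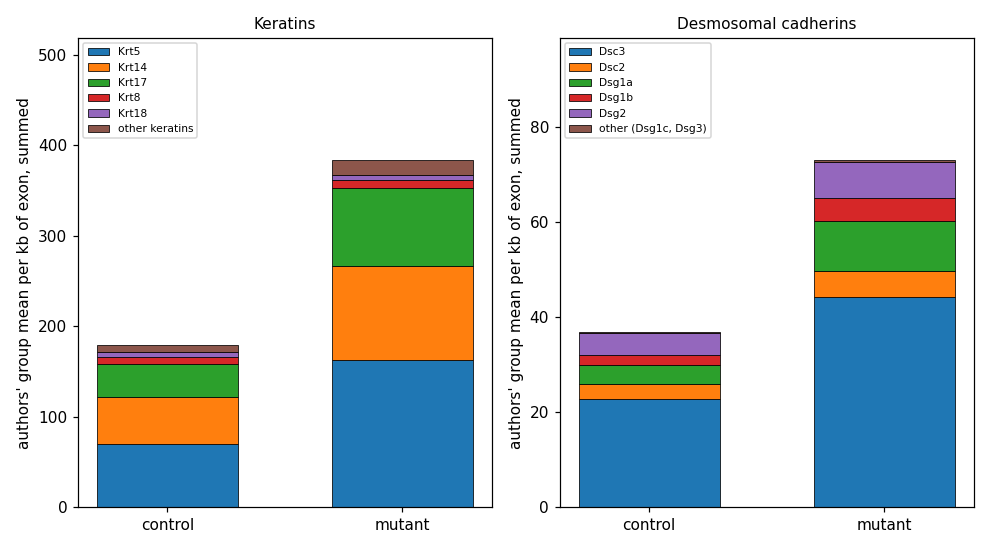
Stacked bars of the authors' group means per kb of annotated exon, for the keratins (left) and the desmosomal cadherins (right), in controls and the mutants, with no error bars because values per sample were not analysed here. The keratin sum is 179.8 in controls and 384.2 in mutants and the cadherin sum is 37.0 and 73.1, with *Krt5*, *Krt14*, *Krt17* and *Dsc3* filling most of the bars.

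Weakly expressed keratins of the hair follicle had 4 of the 5 highest ratios among the keratins, the other being that of *Krt15*. Of 5 listed hair and root sheath keratins in the table, 4 were over 1.5-fold higher and 1 was lower. Among all genes with a mean under 10, as these have, 12.9% were over 1.5-fold higher. *Krt28*, a type I keratin of the inner root sheath, had means of 0.146 in controls and 1.13 in mutants, a ratio of 7.74 that rests on about 14.0 reads over the 3 control libraries and 144.5 over the 3 mutant libraries. *Krt27*, a type I neighbour with the same site of expression, had means of 0.514 and 1.99, a ratio of 3.87. *Krt73*, a type II keratin of the inner root sheath, had means of 0.560 and 2.07, a ratio of 3.70. *Krt75*, known from the companion layer of the hair follicle and from the enamel organ, had means of 0.250 and 1.24, a ratio of 4.97. All 4 were far less abundant than *Krt5*, *Krt14* and *Krt17*, with mutant means of 1.13 to 2.07. *Krt82*, a type II keratin of the hair shaft cuticle, went the other way, with means of 0.787 and 0.327, a ratio of 0.416.

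Promoter sequences are shown for *Krt28* and *Krt73*, hair follicle keratins of each filament type with high ratios, beside the abundant *Krt5* and *Krt8*, whose ratio was near 1. The 250 bases before the RefSeq start (GRCm38.p6) are given 5′ to 3′ on the strand of the gene, all 4 on the minus strand, with capitals on the letters TATAAA, the core of a TATA box. They come from chr11:99374904-99375153 (*Krt28*), chr15:101802361-101802610 (*Krt73*), chr15:101712906-101713155 (*Krt5*) and chr15:102004343-102004592 (*Krt8*).
Krt28: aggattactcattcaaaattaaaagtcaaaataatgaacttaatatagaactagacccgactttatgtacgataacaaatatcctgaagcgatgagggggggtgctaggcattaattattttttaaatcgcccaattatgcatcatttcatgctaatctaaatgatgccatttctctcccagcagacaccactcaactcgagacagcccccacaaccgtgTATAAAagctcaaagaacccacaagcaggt
Krt73: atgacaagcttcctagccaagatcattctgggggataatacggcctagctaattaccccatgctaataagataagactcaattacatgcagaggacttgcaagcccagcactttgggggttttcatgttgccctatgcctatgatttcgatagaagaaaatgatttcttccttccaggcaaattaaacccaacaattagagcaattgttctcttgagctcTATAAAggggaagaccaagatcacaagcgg
Krt5: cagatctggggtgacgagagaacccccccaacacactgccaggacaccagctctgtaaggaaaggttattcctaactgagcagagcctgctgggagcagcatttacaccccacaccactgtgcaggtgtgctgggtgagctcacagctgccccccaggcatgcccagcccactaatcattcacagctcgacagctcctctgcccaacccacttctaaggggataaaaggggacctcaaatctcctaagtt
Krt8: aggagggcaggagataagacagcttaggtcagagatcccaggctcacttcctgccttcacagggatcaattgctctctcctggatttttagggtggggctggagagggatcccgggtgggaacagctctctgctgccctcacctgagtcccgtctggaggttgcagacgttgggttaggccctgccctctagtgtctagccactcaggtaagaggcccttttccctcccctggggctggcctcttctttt
In *Krt28* and *Krt73* the letters TATAAA began 30 bases before the start, and the windows of *Krt5* and *Krt8* did not hold them. Searched on both strands, TATAAA was found in 7 of 22 promoters of members (31.8%; *Krt10*, *Krt20*, *Krt27*, *Krt28*, *Krt73*, *Krt76* and *Krtdap*) and in 12.4% of all 32851 promoters. The palindrome GCCNNNGGC, which AP-2 factors bind, was found in 4 of the 22 (18.2%; *Dsp*, *Krt7*, *Krt18* and *Krt42*) and in 13.7% of all promoters. The promoter table covered 21 of the 40 members. By the GENCODE gene spans, 3 of the 22 windows (*Krt7*, *Krt14* and 1 of *Pkp4*) lay wholly inside their gene, and without them TATAAA was found in 7 and GCCNNNGGC in 3 of the other 19. The printed window of *Krt8* overlaps its gene by 140 bases. Both motifs were thus found in promoters of members with high ratios and of members near 1.

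Among the remaining keratins, *Krt80*, a type II keratin that appears near desmosomes in differentiating epithelial cells, had means of 14.0 in controls and 31.2 in mutants, a ratio of 2.23. *Krt42*, a type I gene next to *Krt17*, had means of 0.288 and 0.856, a ratio of 2.97. *Krt24*, a type I keratin, was at the lowest mean in controls and at 0.127 in mutants, at least 1.23-fold higher. *Krt222*, a keratin-like gene, had means of 4.97 and 3.46, a ratio of 0.695 that is within 1.5-fold. By position, the annotation lists 27 protein-coding keratin genes on chromosome 11 and 26 on chromosome 15. Of the 10 members on chromosome 11, 6 were over 1.5-fold higher, with a median log2 ratio of 1.12, and of the 11 on chromosome 15, 6 were, with a median of 1.02. The share over all genes was 7.17%, and 12.9% among genes with a mean under 10, where most of these keratins lie. Genes of both clusters were thus among the higher ones.

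All 7 desmosomal cadherins had higher means in mutants, and 6 were over 1.5-fold higher, against 7.17% of all genes. *Dsc3*, the desmocollin of basal stratified cells, was the most abundant, with means of 122.9 in controls and 238.9 in mutants, a log2 ratio of 0.96. *Dsc2*, a widely distributed desmocollin, had means of 16.6 and 29.3, a log2 ratio of 0.82. *Dsg2*, the desmoglein of simple epithelium and heart, had means of 38.2 and 62.0, a ratio of 1.62 and the lowest of the 6. *Dsg1a* and *Dsg1b*, copies of the desmoglein of differentiated stratified layers, had means of 23.5 and 59.9 and of 8.41 and 19.2, ratios of 2.55 and 2.29. *Dsg3*, the desmoglein of basal layers, was scarce, at 1.07 and 3.08, with a ratio of 2.87. *Dsg1c* was close to the floor, at 0.163 and 0.235. *Dsc3* made up 61.5% of the summed cadherin level per kb in controls and 60.4% in mutants. *Dsg1a* made up 11.2% and 14.4%, and *Dsg2* 12.5% and 10.2%. The exon length of *Dsg2* was 8.27 kb, although its longest coding transcript held only 5717 distinct windows of 50 bases. For *Dsg1a* these values were 5.69 kb and 5637, so their order in mutants depends on the length used.

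Plaque genes were split between members that were higher and members that were near 1. Of the 5 armadillo genes, *Pkp1* and *Pkp3* were over 1.5-fold higher, against 7.17% of all genes. *Pkp1*, the plakophilin of stratified epithelium, had means of 38.1 in controls and 96.6 in mutants, a ratio of 2.54. *Pkp3*, found in most epithelia, had means of 7.19 and 12.3, a ratio of 1.72. *Pkp2*, the plakophilin of heart and simple epithelium, was scarce, at 0.201 and 0.279. *Jup*, which encodes plakoglobin and serves adherens junctions as well, had means of 39.7 and 52.1, a ratio of 1.31. *Pkp4*, which is found at adherens junctions of many cell types, had means of 234.3 and 236.1, a log2 ratio of 0.011. *Pkp1* made up 78.9% of the summed level of *Pkp1*, *Pkp2* and *Pkp3* per kb in controls and 84.7% in mutants.

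The 3 plakins were all over 1.5-fold higher, against 7.17% of all genes. The share was 2.15% among genes with a mean over both groups of at least 10, where all 3 lie. *Dsp*, which encodes desmoplakin and ties keratin filaments to the plaque (chromosome 13, 38151294 to 38198577), had means of 139.6 and 266.8, a ratio of 1.91. *Evpl* and *Ppl*, which encode envoplakin and periplakin of the desmosome and the cornified envelope, had means of 12.9 and 27.3 and of 9.96 and 25.4, ratios of 2.11 and 2.55. Of the associated genes, *Sfn*, which encodes the epithelial 14-3-3 protein, had means of 11.9 and 31.8, a ratio of 2.68. *Pof1b*, an actin-binding protein of epithelial junctions, had means of 3.54 and 9.35, a ratio of 2.64. *Perp*, a tetraspan membrane protein of desmosomes, had means of 274.1 and 343.7, a log2 ratio of 0.33 that is within 1.5-fold. *Krtdap*, a secreted protein of differentiating keratinocytes, was under the floor in controls and at 0.236 in mutants, at least 2.28-fold higher.

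Some of these values may be shared between near-identical genes. In the GENCODE vM21 transcripts, 9 of the 40 members had over 5% of their 50-base windows in common with a transcript of another gene. *Krt6a* shared 49.5%, mostly with *Krt6b*, *Dsg1b* 48.9% and *Dsg1a* 35.0%, mostly with each other, and *Dsg1c* 29.6%, mostly with *Dsg1a*. *Krt8* shared 26.9% with its pseudogene *Krt8-ps*, whose own means were 0.365 in controls and 0.285 in mutants. *Sfn* shared 15.0%, mostly with *Gm7850*, and *Krt27* 11.1% with *Krt25*. *Krt14* shared 14.4%, mostly with *Krt16*, and *Krt5* 8.52%, mostly with *Krt6a*. *Krt17*, at 3.99%, was under the limit of 5%. How reads that match several genes were counted is not given in the sources used here, so the values of *Krt6a* and of the *Dsg1* copies in particular are uncertain.

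Most of the other listed epithelial genes also had higher means in mutants. All 7 listed markers of epithelium of any kind were over 1.5-fold higher, against 7.17% of all genes. Their summed mean was 251.6 in controls and 475.7 in mutants, with a median log2 ratio of 0.92. None was at the floor in either group. The list shares *Cdh1*, *Epcam*, *Esrp1* and *Trp63* with that of regulators. Of 17 listed epithelial regulators and adhesion genes, 13 were over 1.5-fold higher, against 7.17% of all genes, and none was lower by that much. Among genes with a mean under 10 the share was 12.9%, and *Cldn4*, *Cldn7*, *Elf3*, *Ovol1* and *Grhl3* are among the counted genes there. The median log2 ratio of the 17 was 0.86. *Trp63*, the regulator of basal epithelial identity, had means of 62.2 and 117.6, and *Cdh1*, which encodes E-cadherin, of 100.2 and 180.8. Within 1.5-fold, *Klf5* and *Tfap2c* were higher, whereas *Grhl1* and *Tfap2a*, with means of 48.9 and 40.3 for *Tfap2a*, were lower. Of the hemidesmosome genes, which fix basal keratins to the basement membrane, *Itgb4*, an integrin chain, had means of 66.0 and 112.5, a ratio of 1.71. *Col17a1*, a transmembrane collagen of the hemidesmosome, had means of 148.2 and 241.8, a ratio of 1.63. *Plec*, which encodes the plakin that links keratins to the hemidesmosome, had means of 182.4 and 201.7, a ratio of 1.11 that is within 1.5-fold. Of the 7 ameloblast markers 4 were over 1.5-fold higher, against 7.17% of all genes, and *Enam* had the highest ratio, 14.6. Their summed mean was 1357 in controls and 9591 in mutants, most of it from *Ambn*, *Amelx* and *Enam*. *Odam*, *Mmp20* and *Klk4* stayed within 1.5-fold, with ratios of 1.48, 1.21 and 0.809. The part of all these genes in the result for keratins and desmosomes was not tested.

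Markers of mesenchyme, endothelium, macrophages and glia all lay within 1.5-fold, whereas some markers of odontoblasts and muscle did not. None of the 8 mesenchymal markers was past 1.5-fold, with a median log2 ratio of -0.29. The endothelial list (5 genes) had a median of 0.055 with none past 1.5-fold, and its summed mean was 313.0 in controls and 315.6 in mutants. The 4 macrophage markers had a median of 0.24 and the 3 glial markers of -0.10, with none past 1.5-fold. Of the 3 odontoblast markers, *Dmp1* was over 1.5-fold lower, and their summed mean was 5788 in controls and 4624 in mutants. The 5 muscle markers had summed means of 5.41 and 4.86, with *Acta1*, *Ckm* and *Tnnt3* over 1.5-fold lower and *Myh4* higher. Over all genes, 5.73% were over 1.5-fold lower and 7.17% higher. Whether these lists bear on the keratin ratios was not tested.

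**Figure D4:**
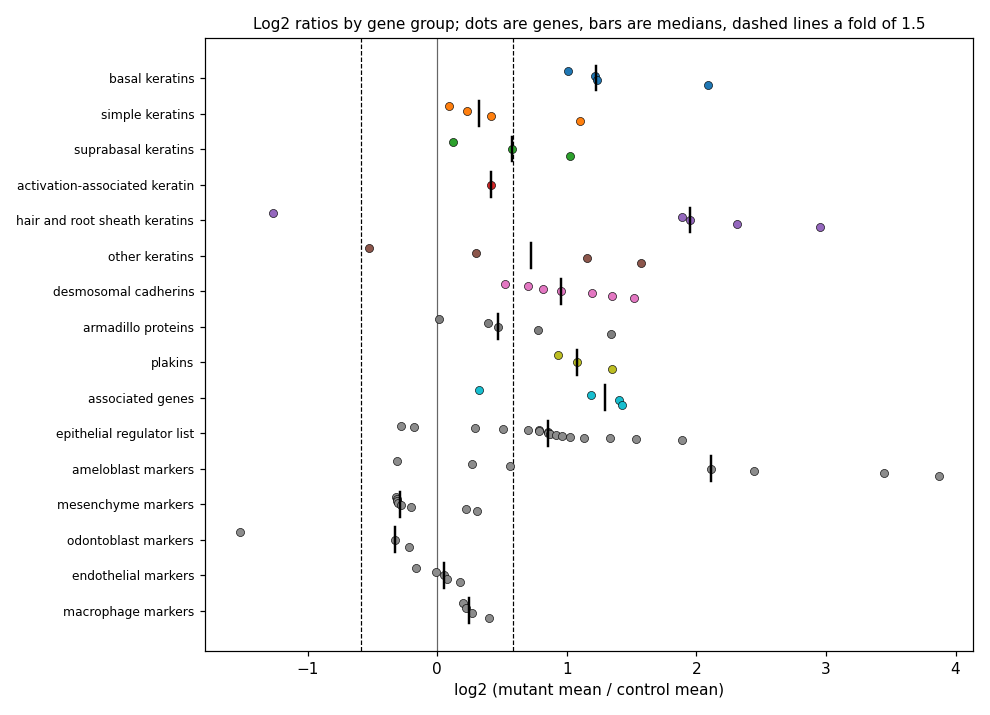
Log2 ratios of mutant to control means (horizontal axis) for the members by group (coloured) and for 6 comparison lists (grey), where dots are genes, black bars are medians over the genes shown and dashed lines mark 1.5-fold, with ratios that are bounds drawn at the bound. The 4 basal keratins all lie right of the upper dashed line, *Krt8* and *Krt18* lie left of it, and the mesenchymal and endothelial markers lie between the dashed lines.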

How the data were processed

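Reads of 3 control and 3 mutant incisor samples were trimmed and aligned to mm10 by the authors, and the submitters' processing notes name TopHat2 2.0.8. The groups were compared by the authors in Partek Flow, and the counting tool, annotation and scaling are not given in the sources used here. The deposited table holds, per gene, the authors' mean of a normalized signal for each group. Its columns of p-values, FDR, ratio and fold change, and a filtered copy, hold the authors' own comparison and were not used. A second deposited table summarizes the signal of each library, of which 3 columns were not used. Single-sample values of genes are not analysed here, and group means alone allow no test.

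The reading of the signal as reads plus 1 times a factor was inferred: each group's lowest mean matches the average of the library minima, and the upper quartile was 44.57 to 44.58 in every library. Only 55.7% of the control and 43.8% of the mutant means within 5 reads of the lowest came out as whole reads (tolerance 1% of a read), so the floors and read numbers are approximate and cover counting only.

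Log2 ratios of the group means, raised to the floor of 3 reads per library, were computed with no pseudocount, and calls use a fold over 1.5. Alternatives were other folds, filters on the mean or on both group means (the latter added after the data were seen), a pseudocount and centring. Members and lists were chosen with earlier results of these data known. All 40 members are named, and the other named genes are *Arid1b*, *Ddx3y*, *Krt8-ps* and genes of the lists, some chosen after their values were seen. Gene positions and exon lengths come from GENCODE vM21 (GRCm38) and promoters from RefSeq (GRCm38.p6). Protein sequences were not used here, and shared windows of transcripts, chosen after the data were seen, took their place. The scripts were tested on simulated data and ran in Python 3.11.15 with numpy 2.4.6, pandas 2.3.3 and matplotlib 3.10.9.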

Additional observations from a re-analysis of the deposited data

How the results depend on the processing

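The count of members over 1.5-fold higher was 26 of 40. At a fold of 2 (21) or a log2 ratio past 0.32 (33) it stayed within 1.5 times of that. So did the counts with a pseudocount of 1 (22), after centring (26) and for means of at least 1 (20 of 28). The share of all genes was not counted at these settings, so the counts alone do not show how far the members stood apart there. With means of at least 10 required, 14 of 18 members were counted, 2 of which entered only through their mutant mean. Of the members at 10 or above in both groups, an alternative added after the data were seen, 12 of 16 were higher and 0 lower. The filter at 1 also let in *Krt27* and *Krt73* only through their mutant means. The count lower was 2 at a log2 ratio past 0.32, and 0 with a pseudocount of 1 or for means of at least 10 or at least 1. No median turned its direction. With a pseudocount of 1 the median log2 ratio was 0.74 over all members, against 1.02 in the main setting. It was 0.15 for simple (main 0.33), 0.14 for suprabasal (main 0.58) and 0.28 for activation-associated keratins (main 0.41). For hair and root sheath keratins it was 0.90 (main 1.95), for other keratins 0.33 (main 0.73) and for associated genes 0.76 (main 1.29). These medians were smaller since a pseudocount pulls the ratios of low means toward 1 by construction. Among means of at least 10 the median log2 ratio was 0.094 for simple keratins (1 gene), 1.15 for other keratins (1 gene) and 0.88 for associated genes (2 genes). Averaging instead of taking the median gave 1.39 for basal, 0.46 for simple, 1.57 for hair and root sheath and 0.63 for other keratins, 0.60 for armadillo genes and 1.08 for associated genes. A shift of over 0.1 was counted as a move. No paired analysis was possible because only group means of each gene are analysed here, and leaving out each library was not possible for the same reason.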

Other observations

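Among other intermediate filament genes, 11 of 14 listed genes were in the table, with a median log2 ratio of 0.094. *Vim*, which encodes the filament protein of mesenchymal cells, had authors' means of 1463 (control) and 1208 (mutant), and *Nes*, which encodes nestin, 575.6 and 429.6, both within 1.5-fold. The 2 genes over 1.5-fold higher, against 7.17% of all genes, were *Nefl* and *Nefm*, neurofilament genes with mutant means under 0.3. Both were named after their values were seen. Of the 12 listed genes of the cornified envelope, 3 were in the table. *Tgm1*, which encodes a transglutaminase, had means of 119.0 and 100.7, and *Lor*, which encodes loricrin, 0.266 and 0.369, both within 1.5-fold. *Lypd3* was over 1.5-fold higher at a low level.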
